A study of Morchella sextelata with 15 samples.

Results

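Trifluralin and acetochlor, herbicides with different targets in plants, were compared directly in mycelium of the morel Morchella sextelata, a cultivated ascomycete fungus. The comparison used the 3 trifluralin libraries and the 3 acetochlor libraries, chosen by their treatment label, which are 6 of the 15 RNA libraries of the series. The 3 libraries of a control without herbicide gave the reference level. According to the labels all mycelium was wild type, and the series text has it cultured for 5 days at 20 °C on PDA (potato dextrose agar). The text gives each herbicide at 10 times its own normal application concentration, so trifluralin and acetochlor were matched by this multiple and not by concentration. The concentrations themselves were not given in the sources used here. Groups of 3 libraries were also made with pendimethalin and with S-metolachlor under the same conditions. The series text speaks of replications per group but does not say whether they were separate cultures, so the p-values measure the spread between these libraries, which may be technical.

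Trifluralin is a dinitroaniline with a trifluoromethyl group, and dinitroanilines bind plant tubulin and block the assembly of microtubules, so that dividing root cells fail to separate their chromosomes. Acetochlor is a chloroacetanilide, and this class blocks the elongases that build very-long-chain fatty acids in plant seedlings. Fungi also have microtubules and very-long-chain fatty acids, which are part of their sphingolipids. Pendimethalin is another dinitroaniline and S-metolachlor another chloroacetanilide, so the series holds a second pair of herbicides from the same classes.

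Levels are given in CPM, counts scaled to the library total and to TMM factors. The features measured are assembled transcripts with names of the Trinity type, such as TRINITY_DN923_c0_g1_i1_3, and the files do not pair them with genes. Of the 20602 row names, 0 matched the 13182 genes of the Morchella reference table. No role can therefore be given to a transcript, no list of tubulins or fatty acid elongases could be drawn up, and the label of mycelium could not be set against marker genes. Reads of near-identical transcripts, isoforms or transcripts on opposite strands may have been divided between rows, which makes a single row's value uncertain in that respect. In bulk RNA, fewer cells of one kind and less RNA per cell cannot be told apart.

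Library totals were alike, from 24237135 to 24728350 expected counts with trifluralin, 22923346 to 24592427 with acetochlor and 23921235 to 24309184 in the controls. Between 17640 and 17792 transcripts had counts with trifluralin and between 17485 and 18156 with acetochlor. The spread among replicates, as a biological coefficient of variation, was 0.43 with trifluralin, 0.40 with acetochlor and 0.42 in the controls. Libraries treated with pendimethalin were less uniform. Pendimethalin replicate 3 had a mean Spearman correlation of 0.925 with its own group and 0.948 with the acetochlor libraries. Its means with the controls, 0.939, and with trifluralin, 0.936, were also above that with its own group. Some of the counts and shares that rest on pendimethalin are given below with and without that library, and the others only with it.

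The trifluralin and acetochlor libraries lay close to each other but apart. Across the 17555 transcripts tested, the Spearman correlation of a trifluralin library with an acetochlor library had a median of 0.945 and ranged from 0.921 to 0.954 over the 9 pairs. Trifluralin libraries correlated with each other at a median of 0.955, between 0.955 and 0.962. The acetochlor libraries correlated with each other at a median of 0.962, between 0.962 and 0.964. Each of the 6 libraries had its highest mean correlation with its own group. Trifluralin replicate 3 was the farthest from acetochlor, with a mean of 0.927 against 0.949 and 0.944 for replicates 1 and 2. The median correlation with the controls was 0.926 for trifluralin and 0.935 for acetochlor, and with S-metolachlor it was 0.870 and 0.850. Transcripts are not independent replicates, so these correlations only describe the libraries.

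Each herbicide changed more transcripts against the controls than differed between them, although both comparisons with control use the same 3 control libraries. With trifluralin 2578 of the tested transcripts were called, 14.7% of them, at an edgeR adjusted p under 0.05. With acetochlor 1706 were called, which is 9.72%. Between the herbicides 384 transcripts were called, 2.19% of those tested. Of these, 183 were higher with acetochlor, 1.04% of those tested, and 201 were higher with trifluralin, 1.14%. An unadjusted p under 0.05 was reached by 3710 transcripts. For scale, pendimethalin and trifluralin, both dinitroanilines, differed in 72 transcripts or 0.410%, and acetochlor and pendimethalin in 413 or 2.35%. Without pendimethalin replicate 3 these counts were 82 and 1401. Acetochlor and S-metolachlor, both chloroacetanilides, differed in 6555 or 37.3%, and S-metolachlor and trifluralin in 6153 or 35.0%. These counts share libraries with one another and were not tested against each other.

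The differences called between the herbicides were mostly large. At least a 2-fold difference was fitted for 311 of the 384 transcripts, at least 4-fold for 161 and at least 8-fold for 65. The median log2 difference, acetochlor minus trifluralin throughout, was 1.94 among those higher with acetochlor and -1.65 among those higher with trifluralin, and the smallest called difference was 0.50 in size. Over all tested transcripts the median absolute log2 difference was 0.46. In all 384, the trifluralin and acetochlor libraries did not overlap, as was the case in 26.1% of the tested transcripts. A call needs a difference that is large for the spread between libraries. The sizes and the lack of overlap therefore follow largely from the choice of called transcripts. The called transcripts belonged to 383 Trinity genes, the assembler's groups of isoforms.

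**Figure D1:**
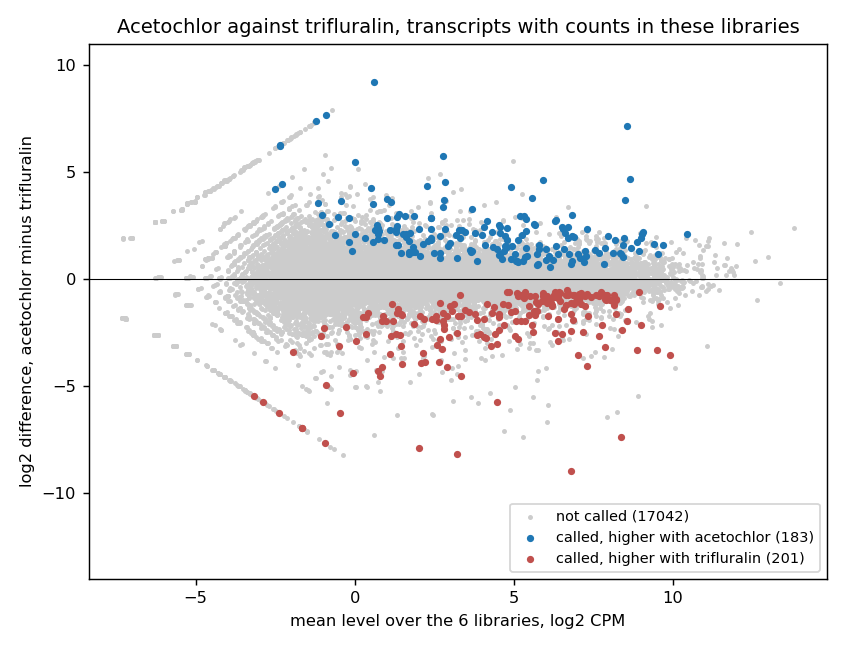
Log2 difference between acetochlor and trifluralin (vertical axis) against the mean level over the 6 libraries in log2 CPM (counts scaled to the library total, horizontal axis) for the 17426 tested transcripts with counts in these libraries; the other 129 were at 0 in all 6. Blue points are the 183 transcripts called higher with acetochlor and red points the 201 called higher with trifluralin; the straight outer lines of grey points on the left are transcripts at 0 in 1 of the groups.

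Calls were concentrated among the abundant transcripts, where the estimates were tighter. Among the 5417 transcripts with a mean under 1 CPM over both groups, 29 were called, or 0.535%, and the 95% interval of a log2 difference reached a median of 1.98 to either side. From 1 to 10 CPM 114 of 4807 were called (2.37%), from 10 to 100 CPM 148 of 4991 (2.97%) and from 100 to 1000 CPM 92 of 2235 (4.12%), with median half-widths of 0.94, 0.52 and 0.49. At 1000 CPM or more 1 of 105 was called, or 0.952%, with a median half-width of 0.62. For most rare transcripts a 2-fold difference between the herbicides was not detectable at this depth and spread.

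A transcript that was not called is not thereby shown to be equal. The 95% interval of the difference could be computed for 17426 transcripts and lay within 2-fold in both directions for 5511 of them, or 31.6%. For 400 transcripts the whole interval lay beyond 2-fold.

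The number of calls depended on single libraries. Leaving out 1 library at a time gave 185 calls without trifluralin replicate 1, 45 without trifluralin replicate 2 and 37 without trifluralin replicate 3. It gave 46 without acetochlor replicate 1, 118 without acetochlor replicate 2 and 284 without acetochlor replicate 3. The split moved too, to 34 higher and 12 lower with acetochlor without its replicate 1, and to 184 higher and 100 lower without its replicate 3. Leaving out libraries of the other groups, which enter the same fit, moved the count as well. It was 179 without control replicate 1, 976 without pendimethalin replicate 3, and 155, 183 and 146 without S-metolachlor replicates 1, 2 and 3. With only trifluralin and acetochlor in the fit 12 transcripts were called, 9 of them among the 384.

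A core of 20 transcripts stayed called whichever 1 of the 15 libraries was left out, 9 higher with acetochlor and 11 higher with trifluralin. Their differences ranged from 1.24 to 8.94 in size on the log2 scale, and their mean levels over both groups from 2.81 to 405 CPM. Of these 20, only 4 kept their call with trifluralin and acetochlor alone in the fit. DESeq2 called 383 of the 384 transcripts and both limma runs on FPKM called 194. The 4 transcripts described next were called under all 24 alternatives and were picked for that after their values were seen.

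TRINITY_DN6540_c3_g1_i3_2 was at 27.9, 38.1 and 30.4 CPM in the trifluralin libraries, 215, 169 and 142 CPM in the acetochlor libraries, and 40.7, 29.9 and 38.5 CPM in the controls. The lowest acetochlor library was more than 3 times as high as any trifluralin or control library, and trifluralin and control overlapped. The log2 difference was 2.45 (SE 0.19, edgeR adjusted p = 0.000151, at most 0.0281 over the alternatives). Acetochlor was 2.27 above control (edgeR adjusted p = 5.24e-05), and trifluralin was not called, at -0.18 (edgeR adjusted p = 0.533). With pendimethalin the level was 36.5 ± 2.89 CPM and with S-metolachlor 47.4 ± 4.68 CPM (SD, n = 3 each), both far below the acetochlor level.

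TRINITY_DN6847_c0_g1_i4_4 was at 16.1, 14.9 and 14.2 CPM with trifluralin, 58.3, 54.4 and 51.1 CPM with acetochlor, and 62.4, 55.5 and 64.6 CPM in the controls. Here the trifluralin libraries were the low ones, while acetochlor and control overlapped. The log2 level with acetochlor exceeded that with trifluralin by 1.86 (SE 0.15, edgeR adjusted p = 0.000151, at most 0.0266 over the alternatives). Trifluralin fell by 2.01 on the log2 scale against control (edgeR adjusted p = 9.68e-05), and acetochlor stood at -0.16 (edgeR adjusted p = 0.556). Pendimethalin had 29.6 ± 3.55 CPM, also below control, and S-metolachlor had 583 ± 90.4 CPM, above every other group.

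TRINITY_DN15381_c0_g1_i1_1 was at 339, 454 and 473 CPM with trifluralin, 35.7, 56.7 and 46.7 CPM with acetochlor, and 65.3, 53.7 and 23.0 CPM in the controls. All trifluralin libraries lay above all others of these 3 groups, and the acetochlor libraries lay inside the range of the controls. Acetochlor minus trifluralin gave -3.19 (SE 0.36, edgeR adjusted p = 0.00322, at most 0.0257 over the alternatives). Against control trifluralin rose by 3.15 (edgeR adjusted p = 0.000354), and acetochlor was at -0.03 (edgeR adjusted p = 0.975). The level was 436 ± 146 CPM with pendimethalin and 157 ± 6.25 CPM with S-metolachlor.

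TRINITY_DN7371_c1_g8_i2_4 was a rarer transcript, at 6.51, 4.17 and 5.20 CPM with trifluralin, 0.315, 0.187 and 0.501 CPM with acetochlor, and 0.464, 0.251 and 0.200 CPM in the controls. Again the trifluralin libraries stood apart, and acetochlor overlapped with control. Between the herbicides it differed by -3.95 (SE 0.50, edgeR adjusted p = 0.00704, at most 0.0451 over the alternatives). It was 4.09 above control with trifluralin (edgeR adjusted p = 0.000524) and 0.15 with acetochlor (edgeR adjusted p = 0.901). With pendimethalin it was at 5.86 ± 2.83 CPM and with S-metolachlor at 3.88 ± 1.48 CPM, so of the 4 herbicides acetochlor had the mean nearest to control.

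**Figure D2:**
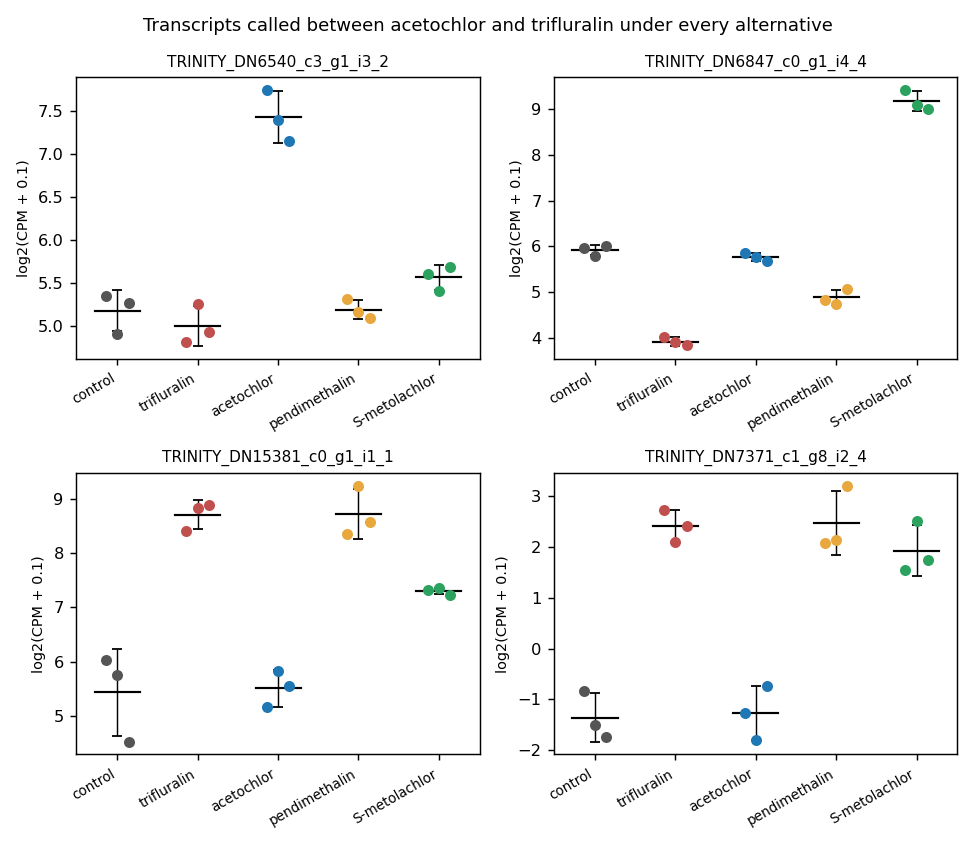
Level of the 4 transcripts called under all 24 alternatives, as log2(CPM + 0.1), in each library of control, trifluralin, acetochlor, pendimethalin and S-metolachlor. Points are libraries, bars the mean and whiskers the SD over 3 libraries; acetochlor stands above the rest in 1 panel, and trifluralin stands apart from both acetochlor and control in the other 3.

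The largest differences in both directions, among called transcripts reaching a mean of 10 CPM in the higher group, were strong in fold and uneven between replicates. TRINITY_DN923_c0_g1_i1_3 was at 527, 44.0 and 91.4 CPM with trifluralin and at 0.225, 0.562 and 0.540 CPM with acetochlor, against 0.882, 2.05 and 0.900 CPM in the controls. Trifluralin replicate 1 was the highest by far, yet the lowest trifluralin library was still well above every acetochlor and control library. The log2 difference was -8.94 (SE 0.98, edgeR adjusted p = 0.00314), and was -7.24 without trifluralin replicate 1. The call was lost in 1 of the 24 alternatives, the fit of these groups alone (edgeR adjusted p = 0.0548, the highest of all). Trifluralin was 7.42 above control (edgeR adjusted p = 0.000489), and acetochlor was not called, at -1.52 (edgeR adjusted p = 0.293). The other dinitroaniline, pendimethalin, left it at 0.557 ± 0.123 CPM.

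TRINITY_DN12655_c0_g1_i1_2 had 48.0, 6.14 and 1.40 CPM with trifluralin and 0.0900, 0.0937 and 0 CPM with acetochlor. The acetochlor level amounted to 2 fragments in all if the lowest count step of this transcript is taken as 1 fragment. That assumption was not tested, and the intervals that follow rest on it. Trifluralin was 336 times as high, with a 95% interval from 92.7 to 2780 that covers counting error only. Without trifluralin replicate 1 the ratio was 69.1, with an interval from 18.7 to 579, and the trifluralin libraries differed among themselves by more than 10-fold. The edgeR adjusted p was 0.0271, and 7 of 24 alternatives lost the call (adjusted p up to 0.0973). Controls held 0.418, 0.377 and 0.250 CPM, below each trifluralin library. Trifluralin was 5.70 above control on the log2 scale (edgeR adjusted p = 0.0155), a call lost in 3 of 24 alternatives. Control was 6.90 times as high as acetochlor, with a counting interval from 1.56 to 63.0, but edgeR did not call that difference (adjusted p = 0.359). The level was 0.486 ± 0.363 CPM with pendimethalin and 0 CPM in each S-metolachlor library.

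TRINITY_DN7793_c0_g1_i5_5 was at 1047, 266 and 950 CPM with acetochlor, 10.2, 1.97 and 3.45 CPM with trifluralin, and 0.557, 0.209 and 0.550 CPM in the controls. The 3 groups did not overlap, with acetochlor highest and control lowest. The direct log2 difference was 7.18 (SE 1.10, edgeR adjusted p = 0.0122), lost with these groups alone in the fit and without trifluralin replicate 2 or replicate 3 (adjusted p up to 0.0657). Acetochlor was 10.75 above control (edgeR adjusted p = 0.000550). Trifluralin was 3.57 above it (edgeR adjusted p = 0.0388), a call lost in 9 of 24 alternatives. With pendimethalin and S-metolachlor it was at 1.31 ± 1.64 and 0.440 ± 0.447 CPM.

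TRINITY_DN11885_c0_g1_i1_2 was at 7.29, 25.9 and 6.79 CPM with acetochlor, 0.205, 0.361 and 0.152 CPM with trifluralin, and 3.99, 1.05 and 8.05 CPM in the controls. Acetochlor overlapped with control, and the trifluralin libraries were below both. The direct difference of 5.77 (SE 1.21, edgeR adjusted p = 0.0363) was lost in 13 of 24 alternatives, with adjusted p up to 0.149.

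**Figure D3:**
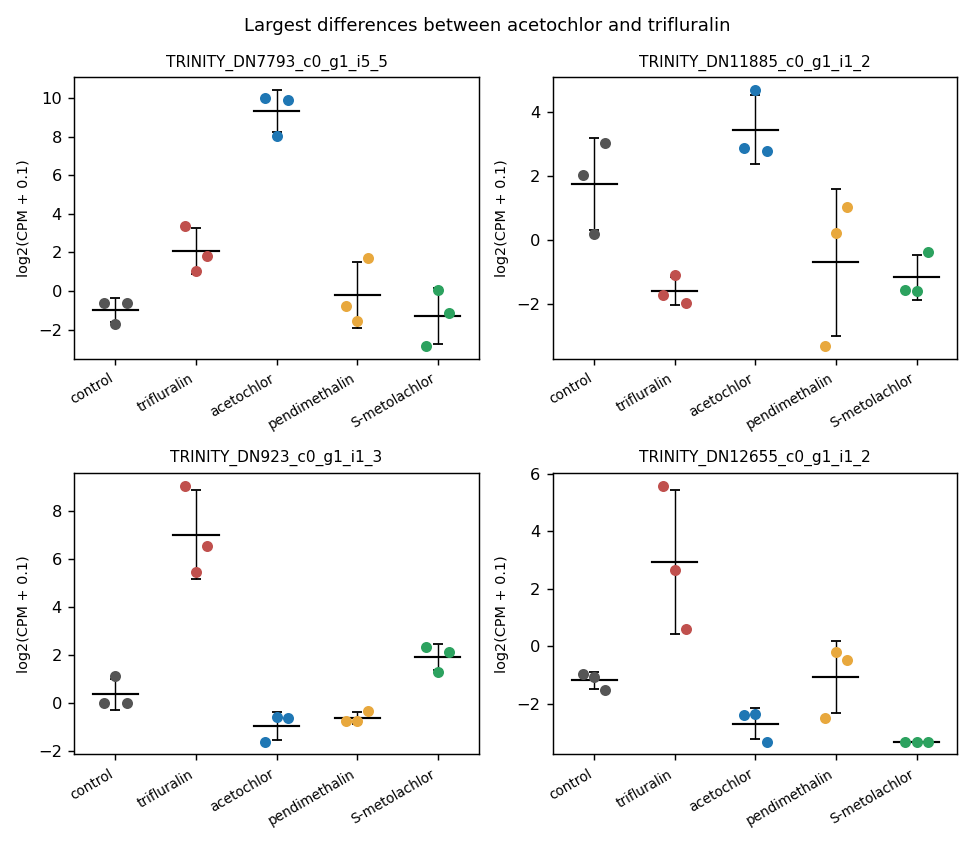
The transcripts with the largest differences between acetochlor and trifluralin in each direction, as log2(CPM + 0.1), by library. Points are libraries, bars the mean and whiskers the SD over 3 libraries; the trifluralin and acetochlor libraries are separate in all 4 panels, and trifluralin replicates vary widely in the panels where trifluralin is high.

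Where the herbicides differed, the control level usually lay between them. In 120 of the 183 transcripts higher with acetochlor the fitted control level was between both herbicides, in 30 it was below both and in 33 above both. In 138 of the 201 higher with trifluralin it was between them, in 31 below both and in 32 above both. Together that is 258 of 384, or 67.2%, against 28.5% of all tested transcripts. The called transcripts were chosen for a wide gap between the herbicides, into which the level of another group falls more easily, so nothing particular is read from this share. The control was nearer to trifluralin in 192 of the 384 and nearer to acetochlor in the other 192. Over all tested transcripts it was nearer to trifluralin in 42.9% and to acetochlor in 57.1%.

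The separate comparisons with control held calls for both herbicides among these transcripts. Over all tested transcripts trifluralin was called above control in 7.68% and below it in 7.00%, and acetochlor above it in 5.26% and below it in 4.46%. Among the 183 transcripts higher with acetochlor, acetochlor was called above control in 66 and below it in 7, and trifluralin was called below control in 78 and above it in 7. Among the 201 higher with trifluralin, trifluralin was called above control in 71 and below it in 3, and acetochlor was called below control in 68 and above it in 4. These counts use the libraries that chose the transcripts and are a description of where the levels stood.

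Some transcripts were moved from the control level by trifluralin and not called with acetochlor. Besides TRINITY_DN923_c0_g1_i1_3 and TRINITY_DN12655_c0_g1_i1_2, the largest rises of this kind, the largest falls were in TRINITY_DN9852_c0_g1_i1_5 and TRINITY_DN6050_c0_g1_i1_3. TRINITY_DN6050_c0_g1_i1_3 was at 71.6, 70.2 and 11.5 CPM with trifluralin, 587, 671 and 766 CPM with acetochlor, and 1524, 614 and 2372 CPM in the controls. Of these groups trifluralin was lowest in every library, and acetochlor overlapped with the lowest control. S-metolachlor was at 28.3, 54.0 and 45.3 CPM, overlapping with trifluralin, and pendimethalin at 101, 104 and 585 CPM, all below the controls. TRINITY_DN6050_c0_g1_i1_3 fell by 4.88 on the log2 scale against control with trifluralin (SE 0.86, edgeR adjusted p = 0.00445). The direct difference was 3.72 (edgeR adjusted p = 0.0432) and lost its call in 14 of 24 alternatives, with adjusted p up to 0.128. For the rarer TRINITY_DN9852_c0_g1_i1_5 the levels were 0.123, 1.04 and 0.569 CPM with trifluralin, 1.98, 35.6 and 3.86 CPM with acetochlor, and 24.6, 8.21 and 28.3 CPM in the controls. Acetochlor replicate 2 was above all controls and the other acetochlor libraries were below them. The fall of 5.12 with trifluralin (SE 1.10, edgeR adjusted p = 0.0107) was lost without trifluralin replicate 3 (adjusted p = 0.0515, the highest of all). The direct difference of 4.56 (edgeR adjusted p = 0.0491) was lost in 19 of 24 alternatives, with adjusted p up to 0.173, and was 2.30 without acetochlor replicate 2.

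Others were moved by acetochlor and not called with trifluralin. TRINITY_DN6896_c0_g1_i4_5 was at 264, 508 and 1567 CPM with acetochlor, 32.3, 27.0 and 32.9 CPM with trifluralin, and 43.4, 20.7 and 58.3 CPM in the controls. Every acetochlor library was above all others, with replicate 3 the highest, and trifluralin lay inside the control range. Acetochlor was 4.26 above control (edgeR adjusted p = 0.00183) and 4.67 above trifluralin (SE 0.64, edgeR adjusted p = 0.00834). Without acetochlor replicate 3 these differences were 3.24 and 3.65. The direct call was lost in 1 of 24 alternatives, the fit of trifluralin and acetochlor alone (edgeR adjusted p = 0.0548). The level was 12.8 ± 6.83 CPM with pendimethalin and 4.59 ± 0.334 CPM with S-metolachlor, the other chloroacetanilide.

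TRINITY_DN5538_c0_g1_i1_5 was at 15.3, 55.4 and 198 CPM with acetochlor, 6.10, 5.33 and 7.74 CPM with trifluralin, and 4.83, 2.68 and 4.95 CPM in the controls. The acetochlor libraries were all above the others but spread over more than 10-fold. Acetochlor was 4.43 above control (SE 0.69, edgeR adjusted p = 0.00227), or 3.09 without its replicate 3. The direct difference was 3.81 (edgeR adjusted p = 0.0191), or 2.47 without that replicate, and was lost in 7 of 24 alternatives (adjusted p up to 0.0904). S-metolachlor brought this transcript to 135 ± 7.97 CPM and pendimethalin left it at 4.15 ± 0.254 CPM.

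The largest falls with acetochlor were in TRINITY_DN10490_c0_g1_i1_3 and TRINITY_DN11597_c0_g1_i1_4. TRINITY_DN10490_c0_g1_i1_3 was at 0.495, 3.56 and 2.20 CPM with acetochlor, 14.7, 11.7 and 13.8 CPM with trifluralin, and 52.4, 43.3 and 23.3 CPM in the controls. The 3 groups did not overlap, with trifluralin in the middle. It fell by 4.25 on the log2 scale with acetochlor (edgeR adjusted p = 0.00150), and the direct difference of -2.68 (edgeR adjusted p = 0.0367) was lost in 12 of 24 alternatives, with adjusted p up to 0.111. TRINITY_DN11597_c0_g1_i1_4 was at 48.2, 120 and 87.8 CPM with acetochlor, 538, 1056 and 958 CPM with trifluralin, and 2039, 764 and 376 CPM in the controls. Trifluralin overlapped with the widely spread controls and acetochlor lay below both. Against control the log2 difference with acetochlor was -3.63 (edgeR adjusted p = 0.00221). The direct difference was -3.32 (edgeR adjusted p = 0.0171) and was lost in 6 of 24 alternatives, with adjusted p up to 0.0677.

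Among the transcripts called in opposite directions against control, 1 reached a mean of 10 CPM in the higher group without overlap, TRINITY_DN13333_c0_g1_i1_3. It was at 1.68, 2.85 and 3.04 CPM with trifluralin, 4.78, 5.15 and 6.40 CPM in the controls, and 10.9, 11.5 and 8.37 CPM with acetochlor. The 3 groups followed each other without overlap. The direct difference was 2.02 (SE 0.27, edgeR adjusted p = 0.00708), lost in 1 of 24 alternatives, the fit of these groups alone (edgeR adjusted p = 0.0613, the highest of all). The calls against control were weaker, at -1.11 with trifluralin (edgeR adjusted p = 0.0172, up to 0.0838 over the alternatives, lost in 5 of 24) and 0.91 with acetochlor (edgeR adjusted p = 0.0422, up to 0.170, lost in 13 of 24). S-metolachlor brought it to 124 ± 5.83 CPM. Pendimethalin, the other dinitroaniline, had 9.86 ± 3.04 CPM and overlapped with acetochlor. It was 1.96 above trifluralin on the log2 scale (edgeR adjusted p = 0.00522).

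Some changes against control were alike in size with both herbicides. TRINITY_DN3497_c0_g1_i1_2 was at 1724, 1338 and 1934 CPM with trifluralin, 1406, 1504 and 1571 CPM with acetochlor, and 158, 141 and 107 CPM in the controls. Both herbicides overlapped and were far above control, by 3.62 with trifluralin (edgeR adjusted p = 9.68e-05) and 3.46 with acetochlor (edgeR adjusted p = 5.27e-05). The direct log2 difference was -0.16, with a 95% interval from -0.75 to 0.43. The levels with the other herbicides were lower, at 271 ± 103 CPM with pendimethalin and 71.6 ± 10.8 CPM with S-metolachlor, the latter below the controls. TRINITY_DN7964_c0_g1_i5_5 was at 8.97, 17.4 and 19.2 CPM with trifluralin, 17.9, 11.1 and 14.8 CPM with acetochlor, and 1.11, 0.963 and 1.40 CPM in the controls. Its rises were 3.71 with trifluralin (edgeR adjusted p = 0.000369) and 3.65 with acetochlor (edgeR adjusted p = 0.000426). For the herbicides against each other it was -0.06, from -0.87 to 0.75, and both herbicides overlapped. Pendimethalin had 9.49 ± 5.59 CPM and S-metolachlor 11.9 ± 1.27 CPM, also above the controls.

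TRINITY_DN421_c0_g1_i1_3 was at 24.2, 19.0 and 21.1 CPM with trifluralin, 16.2, 13.4 and 31.5 CPM with acetochlor, and 375, 171 and 225 CPM in the controls. Both herbicides overlapped and every control was above them. Every control was also above pendimethalin, at 16.8 ± 4.46 CPM, and S-metolachlor, at 4.25 ± 1.10 CPM. The falls were -3.58 with trifluralin (edgeR adjusted p = 0.000215) and -3.66 with acetochlor (edgeR adjusted p = 0.000195) on the log2 scale, and the direct difference was -0.07, from -0.82 to 0.68. TRINITY_DN7839_c0_g2_i1_5 was at 1.68, 1.16 and 1.52 CPM with trifluralin, 0.675, 1.64 and 1.54 CPM with acetochlor, and 8.96, 14.1 and 12.4 CPM in the controls. The same arrangement held, with log2 differences from control of -3.02 for trifluralin (edgeR adjusted p = 0.000488) and -3.19 for acetochlor (edgeR adjusted p = 0.000426). Directly, they differed by -0.17, from -0.94 to 0.59. The level was 1.10 ± 0.232 CPM with pendimethalin and 3.65 ± 1.05 CPM with S-metolachlor, again below the controls. These 4 were named because their direct interval lay within 2-fold, so the closeness of the herbicides in them is a description.

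The summed level of the called transcripts was also read in the libraries that did not choose their direction. The 183 transcripts higher with acetochlor summed to 8172, 7415 and 6226 CPM with trifluralin and 26179, 24586 and 22133 CPM with acetochlor. The controls held 16838, 11244 and 20930 CPM, between both herbicides and unevenly. Pendimethalin had 6708, 7582 and 9578 CPM, near trifluralin, and S-metolachlor had 23120, 21176 and 22167 CPM, near acetochlor. In S-metolachlor 1 transcript, TRINITY_DN7929_c0_g1_i5_3, made up 23.5%, 26.8% and 21.7% of that sum. By the median transcript, as log2(CPM + 0.5), S-metolachlor stood at 3.81, 4.03 and 3.83, overlapping with the controls at 3.78, 3.68 and 4.06 and below acetochlor at 4.80, 5.08 and 4.72. Pendimethalin was at 3.08, 3.22 and 3.74 by that measure and trifluralin at 2.95, 2.98 and 2.78.

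The 201 transcripts higher with trifluralin summed to 25260, 25558 and 25413 CPM with trifluralin and 7900, 9754 and 9192 CPM with acetochlor. Pendimethalin had 23845, 25395 and 22983 CPM, again near trifluralin, and the controls had 19840, 16396 and 14731 CPM. S-metolachlor had 11679, 11439 and 11800 CPM, above acetochlor and below the controls. By the median transcript pendimethalin was at 5.46, 5.29 and 5.07, overlapping with the controls at 5.05, 5.22 and 4.60. S-metolachlor was at 4.39, 4.58 and 4.46 by that measure and overlapped with acetochlor at 3.91, 4.44 and 4.27.

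**Figure D4:**
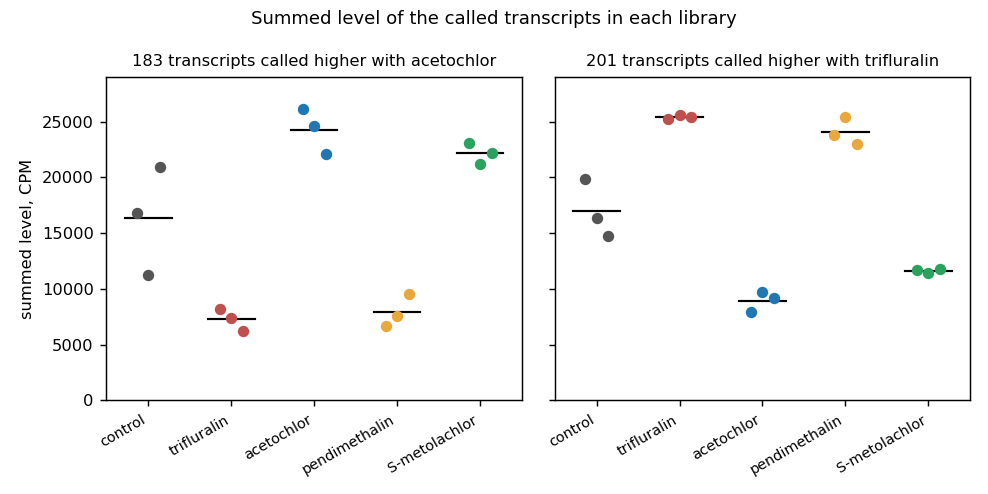
Summed level, in CPM, of the 183 transcripts called higher with acetochlor (left) and of the 201 called higher with trifluralin (right) in each library of the 5 groups. Points are libraries and bars the group means; the separation of trifluralin from acetochlor comes from the choice of the transcripts, whereas the sums of pendimethalin lie near trifluralin and those of S-metolachlor nearer acetochlor in libraries that did not set the direction.

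Transcript by transcript, pendimethalin resembled trifluralin more often than S-metolachlor resembled acetochlor. The fitted pendimethalin level was nearer to trifluralin than to acetochlor in 307 of the 384 transcripts, or 79.9%, against 61.8% of all tested transcripts. That held in 137 of the 183 higher with acetochlor and in 170 of the 201 higher with trifluralin, or in 148 and 175 without pendimethalin replicate 3. The share was 84.1% without that replicate, against 67.7% of all tested, 71.9% without replicate 1, against 54.9%, and 79.7% without replicate 2, against 58.0%. S-metolachlor was nearer to acetochlor than to trifluralin in 198 of the 384, or 51.6%, against 49.2% of all tested, a share near the background. Leaving out 1 S-metolachlor replicate at a time gave 50.8% to 52.1%.

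S-metolachlor against pendimethalin is the second pair across the same classes, and it shares no library with acetochlor against trifluralin, although all libraries entered the same fit. In it 5796 transcripts were called, 33.0% of those tested, 2863 higher with S-metolachlor (16.3%) and 2933 higher with pendimethalin (16.7%). Without pendimethalin replicate 3 the count was 5419. Of the 384 transcripts that differed between acetochlor and trifluralin, 152 were called the same way in the second pair. They are 39.6% of the 384 and 2.62% of the 5796. Another 56, or 14.6%, were called the opposite way. Calls in the second pair were thus more frequent among the 384 than among all tested transcripts, and in each direction the share called the same way exceeded the share of all tested transcripts called that way. Among the 201 higher with trifluralin 92 were higher with pendimethalin too, or 45.8%, and 27 lower. Those 27 are 13.4%, below the 16.3% of all tested transcripts called higher with S-metolachlor. Among the 183 higher with acetochlor 60 were higher with S-metolachlor, or 32.8%, and 29 lower. Those 29 are 15.8%, near the 16.7% of all tested transcripts called higher with pendimethalin. The 384 were more abundant than most, with a median of 27.4 CPM against 4.73 CPM over all tested. Abundant transcripts are called more easily. All libraries also entered the same fit, so the spread estimated for a transcript bears on its calls in both pairs. Choosing the 384 may thus favour transcripts with a small spread, which are called more easily in the second pair as well. The parts of abundance and of this shared spread in the shares called were not tested.

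In sign alone the pairs were closer to even. The log2 differences of both pairs had the same sign in 245 of the 384 transcripts and in 53.0% of all tested transcripts. The median difference of S-metolachlor minus pendimethalin was 0.30 among the 183 and -0.55 among the 201. Over all 17555 transcripts Pearson's r between the log2 differences of the pairs was 0.056 and Spearman's rho 0.047, computed across transcripts that are not independent. The count of 152 of the 384 moved along with the number of direct calls. It was 18 of 37 without trifluralin replicate 3, 20 of 45 without trifluralin replicate 2 and 25 of 46 without acetochlor replicate 1. It was 61 of 118 without acetochlor replicate 2, 74 of 185 without trifluralin replicate 1 and 97 of 284 without acetochlor replicate 3. Without control replicate 1 it was 76 of 179. Without S-metolachlor replicates 1, 2 and 3 it was 65 of 155, 73 of 183 and 67 of 146. Without pendimethalin replicate 3 it was 381 of 976. In each of these fits more transcripts were called the same way than the opposite way. The transcripts described above show both outcomes. TRINITY_DN5538_c0_g1_i1_5 was higher in acetochlor and in S-metolachlor, by 5.03 on the log2 scale in the second pair. TRINITY_DN923_c0_g1_i1_3 was higher in trifluralin and not in pendimethalin. That transcript was called the opposite way in the second pair, with S-metolachlor 2.77 above pendimethalin (edgeR adjusted p = 0.0182). Its S-metolachlor libraries were at 4.86, 2.34 and 4.25 CPM.

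**Figure D5:**
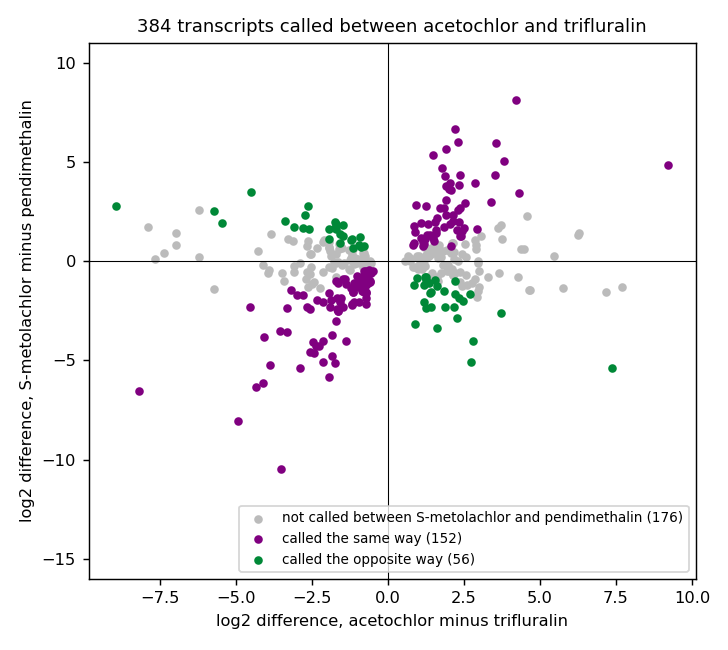
Log2 difference of S-metolachlor minus pendimethalin (vertical axis) against that of acetochlor minus trifluralin (horizontal axis) for the 384 transcripts called between acetochlor and trifluralin. Purple points are the 152 called the same way in both pairs, green points the 56 called the opposite way and grey points the rest; the gap around 0 on the horizontal axis comes from the choice of called transcripts.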

How the data were processed

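RNA of 15 mycelium libraries was analysed from tables of 20602 transcripts. The authors deposited expected counts, estimated fragments per transcript not scaled to a common total, and FPKM, which the authors scaled by transcript length and library total. The submitters' processing notes list Trimmomatic, Bowtie2 and DESeq without versions and name mm10, a mouse build, whereas the row names are of the Trinity type. The steps of assembly and counting were not given in these sources. The series text abbreviates herbicides by initials and library titles use other letters, so groups were taken from the treatment label.

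Expected counts were rounded, filtered with filterByExpr (at least 10 counts in enough libraries and 15 in total), leaving 17555 transcripts after removal of 3047, and scaled by TMM. The quasi-likelihood fit took all libraries in edgeR 4.0.16 (R 4.3.3) with 1 mean per group. Benjamini-Hochberg adjustment ran over all tested transcripts, and an adjusted p under 0.05 makes a call. Standard errors were obtained as the size of the log2 difference over the root of F. CPM are TMM-scaled. The named transcripts had separate libraries and at least 10 CPM in the higher group, and were the 2 largest in each direction per pattern. The 4 transcripts called under all alternatives were added outside this rule, 1 of them below 10 CPM. Where 1 to 3 fragments lay behind a group, a ratio with a counting interval replaces the fitted difference. Alternatives were RLE factors, no filter, DESeq2 1.42.0, limma 3.58.1 on log2(FPKM + 0.1) and log2(FPKM + 1), fewer groups in the fit, a replicate block, sums per Trinity gene and each library left out. The comparison and its rules were chosen with earlier results of these data known.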

Additional observations from a re-analysis of the deposited data

How the results depend on the processing

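Between acetochlor and trifluralin, where 384 were called, RLE factors called 372 (369 of them among the 384), limma on log2(FPKM + 0.1) 286 (230) and limma on log2(FPKM + 1) 314 (245). Sums per Trinity gene, which are other features, gave 347. DESeq2 called 1820, no filter on low counts left 246, trifluralin, acetochlor and control only in the fit gave 147, all groups except S-metolachlor gave 43 and the 2 compared groups alone gave 12. Leaving out 1 library gave 37 to 976. For trifluralin against control, where 2578 were called, DESeq2 gave 4015, the 2 compared groups 1041, all groups except S-metolachlor 1561, and leaving out 1 library 944 to 3306, the low values without trifluralin replicate 3 (944), control replicate 1 (1044) or control replicate 3 (947). Limma on log2(FPKM + 0.1) placed 1817 higher and 1037 lower there, against 1349 and 1229 in edgeR. For acetochlor against control, where 1706 were called, DESeq2 gave 2847, the 2 compared groups 784, trifluralin, acetochlor and control only 990, all groups except S-metolachlor 1014, and leaving out 1 library 638 to 1978, the low values without acetochlor replicate 1 (984), control replicate 1 (638) or control replicate 3 (931). Limma on log2(FPKM + 0.1) placed 958 higher and 591 lower, against 923 and 783. The 5511 intervals within 2-fold became 9757 with limma on log2(FPKM + 1), whose added constant shrinks differences of rare transcripts, and ranged from 4601 to 5693 with 1 library left out. The 152 of 384 transcripts called the same way in the second pair became 588 of 1820 with DESeq2 and 96 of 246 with no filter. They became 94 of 286 with limma on log2(FPKM + 0.1), and ran from 18 of 37 to 381 of 976 with 1 library left out. Leaving out pendimethalin or S-metolachlor libraries was added after seeing the data. The cause of these moves was not tested. Of the 384 calls, 181 held in at least 12 of the 24 alternatives. The titles number the replicates 1 to 3 in every group. Deviations of same-numbered trifluralin and acetochlor libraries correlated at 0.13, 0.13 and 0.04, and those of differently numbered libraries at -0.13 to 0.01. Each same-numbered pair was thus above every differently numbered pair. The same-numbered values were not all over 0.1, so the main fit did not pair the samples. Whether the numbers mark pairs was not tested. With a replicate block 94 were called between the herbicides, 1890 and 1276 against control for trifluralin and acetochlor, and 52 the same way in the second pair. Below 1 CPM the median interval reached 1.98 to either side on the log2 scale, so smaller differences were not detectable there.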

Other observations

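Transcript names end in a digit from 1 to 5 that neither the labels nor the files explain. The share of transcripts called between acetochlor and trifluralin hardly moved with it, from 2.08% for names ending in 1 to 2.34% for names ending in 2. The direction moved more. Of the 75 called names ending in 4, 56 were higher with trifluralin and 19 with acetochlor. Of the 55 ending in 2, 17 were higher with trifluralin and 38 with acetochlor, and of the 88 ending in 5, 34 and 54. Names ending in 1 and 3 were more even, with 52 against 37 and 42 against 35. If the digit marks the libraries from which a transcript was assembled, counts of higher and lower calls depend on it, which was not tested.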
